A study of Mus musculus with 4 samples.

Results

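The genes described here are 42 genes of the extracellular matrix: fibrillar and network collagens, laminin chains, basement membrane linkers, matrix glycoproteins, small proteoglycans and the lysyl oxidases that crosslink collagen. They were chosen by name, and each was read from the row of the deposited tables whose symbol field holds it. All 42 had a row in the table of bulk and mammosphere cells (22440 rows), and 29 had a row in the table of short hairpin RNA (shRNA) cultures (11708 rows). The cells are MMTV-Myc cells, mouse mammary tumour cells in which the mouse mammary tumour virus promoter, active in mammary epithelium, drives a Myc transgene; every group carries it. Polyadenylated RNA was sequenced from 4 libraries, 1 in each group. Bulk cells (labelled day 0, wild type) grew in medium with serum and insulin. Mammosphere cells (labelled day 20, wild type) grew unattached in medium with EGF and bFGF with the Gem21 supplement, and were dissociated into single cells at each passage. Control cells (labelled shLuc in one place and shScr in another) and Cbx8 knockdown cells (hairpin sh68) received a lentiviral hairpin and stayed under puromycin. The knockdown rests on 1 hairpin, and the growth format of the shRNA cultures was not given in the sources used here. With no replicate in any group, each difference below is between 2 libraries, has no estimate of spread and was not tested. The files hold no read counts, so depth is unknown.

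The extracellular matrix of the mammary gland has 2 main compartments. The basement membrane under the epithelium is a sheet of laminin and collagen IV networks, joined by nidogen and the proteoglycan perlecan. The interstitial matrix beyond it is built on fibrillar collagens with fibronectin, collagen VI and small proteoglycans, is largely the product of fibroblasts, and is stiffened by lysyl oxidases. Matricellular proteins such as SPARC and thrombospondins bind both and modulate adhesion and growth factor signals.

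Values are FPKM, which divide the fragments of a gene by its length and by the size of the library, so that levels of different genes in 1 library can be set beside each other. A log2 change is log2 of the ratio after 1 FPKM was added to both values, which makes changes of genes with low values look smaller. A gene is called higher or lower where it reaches 2-fold on that scale, among rows with at least 1 FPKM in one of the libraries. The 2 tables come from separate runs, so changes were taken within a table, and levels set across them are a description.

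Most interstitial matrix transcripts in the list were at or near 0 in mammosphere cells, whereas 8 of the 13 measured basement membrane transcripts, among them the laminin chains Lama5, Lamb1 and Lamc1 and the linkers Nid1 and Hspg2, were within 2-fold of their bulk levels. Of all 42 genes, 31 were at least 2-fold lower in mammospheres and none was 2-fold higher. Of all 11603 rows that passed the minimum, 17.3% were 2-fold lower and 3.54% were 2-fold higher. The median log2 change was −2.88 over the 40 list genes that passed the minimum and −0.24 over all rows that passed it. Of those 40 genes, 22 passed through the bulk library alone, so that their lower mammosphere value is partly set by the minimum. Lama3 (0.509 FPKM in bulk, 0.0158 in mammospheres) and Nid2 (0.688 and 0.0083) did not pass. The typical gene at 1 FPKM or above in both libraries had a plain log2 ratio of −0.21, and with changes centred on that value 29 of the 40 were 2-fold lower. Of the 42 genes, 23 were tested in the authors' deposited table, and 12 of those were significantly lower and none higher. The matching shares of all 4045 tested rows in the authors' deposited table were 10.2% and 1.73%. In these bulk RNA samples, fewer cells of a type and less RNA per cell cannot be told apart.

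**Figure D1:**
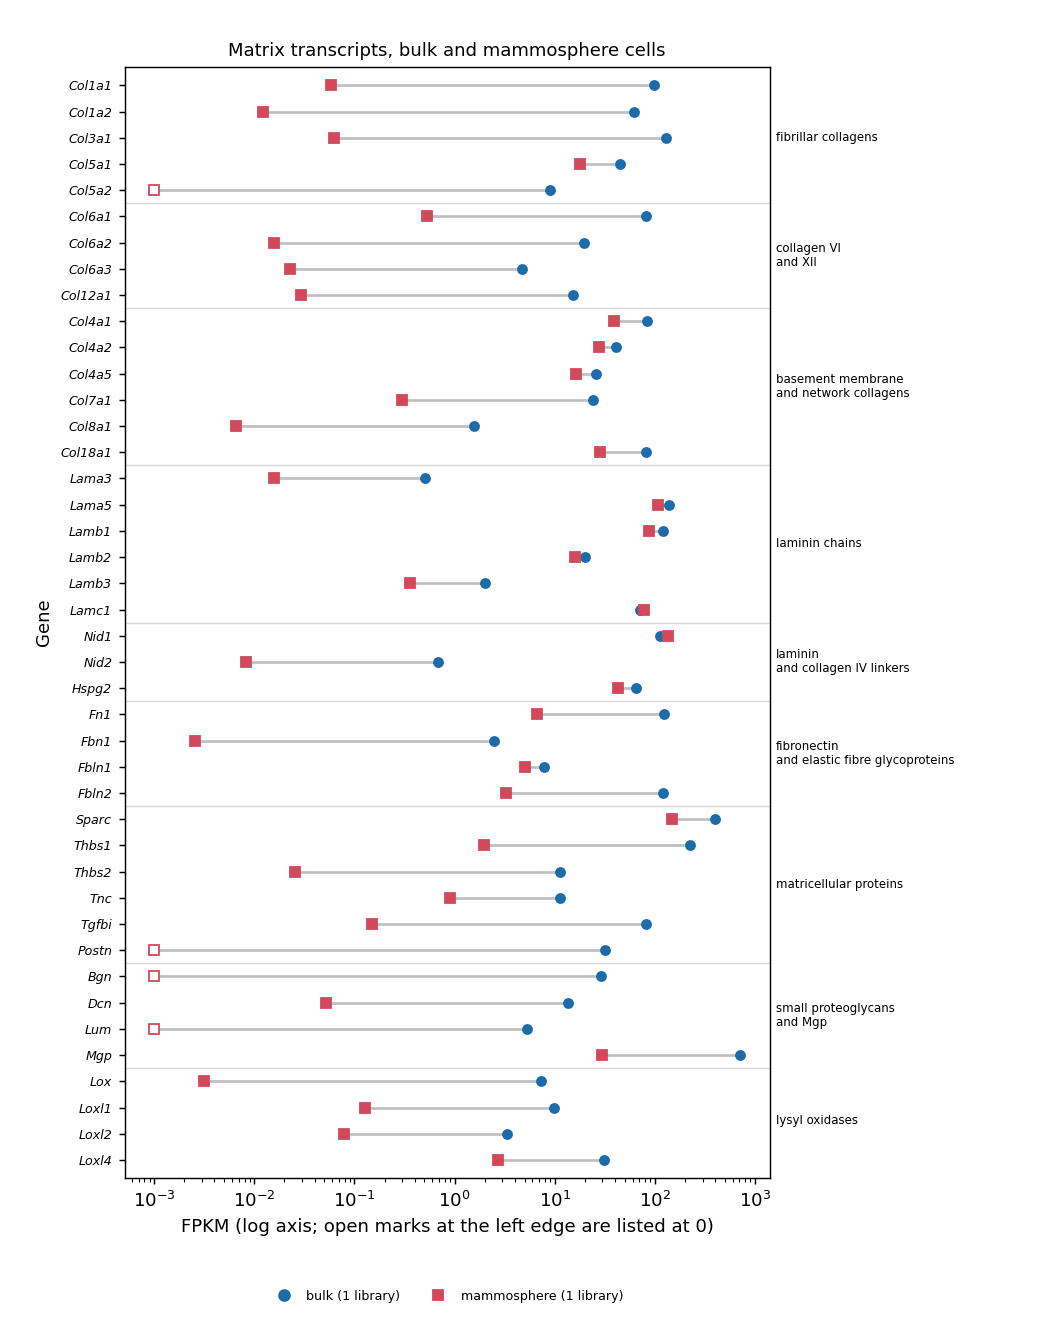
FPKM of the 42 matrix genes in the bulk library (circles) and the mammosphere library (squares), on a log axis, grouped by role, with 1 library each and no error bars. Lama5, Lamb1, Lamb2, Lamc1 and Nid1 have marks close together, whereas Col5a2, Postn, Bgn and Lum are listed at 0 in mammospheres (open squares).

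The same values were also expressed as a share of the summed FPKM of all rows. The 15 genes of the basement membrane groups (collagens IV, VII, VIII and XVIII, laminins, nidogens and perlecan) held 0.177% of it in bulk cells and 0.18% in mammospheres. The other 27 genes held 0.511% and 0.0675%. In FPKM, the first set summed to 790.9 and 580.6, the second to 2289 and 217.7, and all rows to 447568 and 322374. Among the 13 basement membrane genes that passed the minimum, 5 were 2-fold lower (median log2 change −0.60), and among the other 27, 26 were (median −3.81). The exception in the second set was Fbln1. Of these genes, 3 of the 13 and 19 of the 27 passed through the bulk library alone. Centring left 3 of the 13 and 26 of the 27 past 2-fold, and equal upper quartiles left 4 and 25. The joining of roles into these sets was made after the values were seen.

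**Figure D2:**
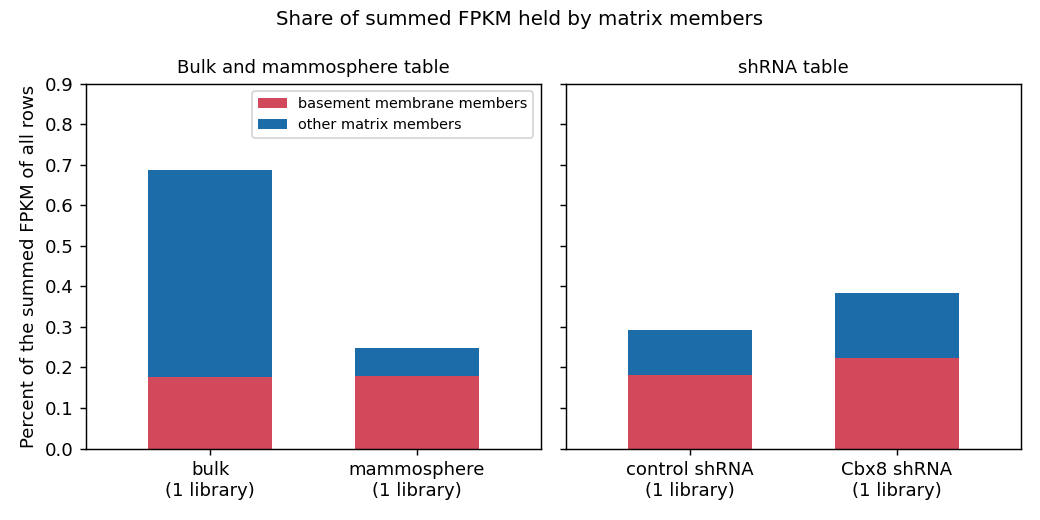
Percent of the summed FPKM of all usable rows held by the 15 basement membrane genes (lower bar part) and the other 27 matrix genes (upper part) in each of the 4 libraries, with no error bars because each group is 1 library. The lower part is 0.177% in bulk and 0.18% in mammospheres, and the upper part is 0.511% and 0.0675%; the 2 tables were scaled in separate runs.

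Markers of other cell types differed between the same libraries. Most of those counted below passed the minimum through the bulk library alone (6 of 11 fibroblast, 11 of 11 leukocyte, 3 of 3 endothelial and 5 of 9 epithelial markers), which by itself gives them a lower mammosphere value. Of 14 fibroblast markers that are not matrix genes of the list, 11 passed the minimum and 8 were 2-fold lower in mammospheres, and their summed level was 1139 FPKM in bulk and 470.8 in mammospheres. Thy1 (9.51 FPKM in bulk), Dpt (3.3), Prrx1 (1.06) and Tcf21 (0.0125, under the minimum) were listed at 0 there, and the gelatinase Mmp2 was at 60.8 and 0.0516 FPKM, whereas S100a4 (749 and 292), the actin-severing protein Gsn (267 and 162) and the mesenchymal factor Twist1 (36.4 and 12.0) were not near 0. All 11 leukocyte markers that passed, of 12, were 2-fold lower, with a sum of 397 FPKM in bulk and 1.32 in mammospheres. Among them, Cd74 was at 164 and 0.0353 FPKM, Lyz2 at 122 and 0.0737 and Laptm5 at 24.0 and 0.0931, and Tyrobp (23.7 FPKM in bulk), Fcer1g (11.3) and Cd3e (1.8) were among those listed at 0. Of 8 endothelial markers, 3 passed and all 3 were lower. Their sum was 9.18 and 0.339 FPKM, with Pecam1 at 3.54 and 0.0593 and Tek, Emcn and Cldn5 listed at 0, which in bulk were already under the minimum at 0.238, 0.53 and 0.565 FPKM. Epithelial markers were lower as well, 7 of 9 that passed of 13, with a sum of 965 and 75.9 FPKM. Krt18 was at 570 and 58.2 FPKM and Krt8 at 334 and 5.14. Krt19, named after its values were seen, was near level at 9.08 and 9.65 FPKM, and the adhesion genes Epcam (1.06 and 0.0908) and Cdh1 (1.04 and 0.0135) were low in both libraries. The part of these other cell types in the matrix differences was not tested.

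All 5 fibrillar collagens of the list were 2-fold lower in mammospheres (median log2 change −5.95), as were all 4 chains of collagens VI and XII (−4.16). Col3a1, a collagen of compliant tissues, had 128 FPKM in bulk cells and 0.0623 FPKM in the mammosphere library. The 2 chains of collagen I, the main fibril-forming collagen, were at 97.7 and 0.0589 FPKM (Col1a1) and at 61.7 and 0.0121 FPKM (Col1a2). Collagen V, which nucleates fibrils, was uneven: Col5a2 had 8.96 FPKM in bulk and a listed value of 0 in the mammosphere library, whereas Col5a1 was at 44.9 and 17.8 FPKM (log2 change −1.28, or −0.98 with equal upper quartiles). Col5a1 was thus the one of the 5 listed fibrillar collagens above 1 FPKM in mammospheres. Col5a3, a collagen V chain outside the list and named after its values were seen, was at 48.5 and 4.56 FPKM. The collagen VI chains, which form beaded microfilaments, followed the collagen I pattern. Col6a1 was at 81.4 and 0.531 FPKM, Col6a2 at 19.6 and 0.0159, and Col6a3 at 4.72 and 0.0227. Col12a1, a collagen that decorates fibrils, was at 15.2 and 0.029 FPKM.

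The network collagens differed among themselves. Collagen IV, the scaffold of the basement membrane, was near or within 2-fold: Col4a1 had 83.0 FPKM in bulk cells against 39.4 FPKM in mammospheres (log2 change −1.06, or −0.85 after centring), Col4a2 at 40.8 and 27.5 (−0.55), and Col4a5 at 25.9 and 16.4 (−0.63). Col4a1 and Col4a2 are divergent neighbours on mm9 chromosome 8 (11198422 to 11312826 and 11312828 to 11449287), and in the RefSeq starts of build GRCm38.p6 their opposite-strand transcripts overlap by 22 bases. The ratio of Col4a1 to Col4a2 FPKM was 2.03 in bulk, 1.43 in mammospheres, 1.77 in control shRNA cells and 2.21 in knockdown cells. Col4a1 thus had the higher level of the pair in all 4 libraries. Col18a1, which carries the endostatin domain, was at 81.6 and 28.5 FPKM (log2 change −1.49). Col7a1, the collagen of the anchoring fibrils under stratified epithelium, was at 23.9 and 0.297 FPKM in a row that it shares with the microRNA gene Mir711. Col8a1, a short-chain collagen of vessel walls and cornea, was at 1.58 and 0.0066 FPKM.

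Laminin transcripts of the α5, β1 and γ1 chains, a trimer found in most epithelial basement membranes, were abundant and near level in both libraries. Lama5 had 140 FPKM in bulk cells against 109 FPKM in mammospheres (log2 change −0.36), Lamb1 at 121 and 87.0 (−0.47), and Lamc1 at 71.7 and 78.2 (0.12). The β2 chain gene Lamb2 was at 19.9 and 16.1 FPKM (−0.29, or 0.01 with equal upper quartiles, which turns its sign). The α3 and β3 chain genes, whose products are found at hemidesmosomes, were low in both libraries. Lama3 was below 1 FPKM in both libraries, as given above, and Lamb3 was at 1.99 and 0.363 FPKM (−1.13, or −0.93 after centring). Nid1, nidogen, the link between laminin and collagen IV, had 113 FPKM in bulk cells against 135 FPKM in mammospheres (0.26). Hspg2, perlecan, was at 65.5 and 42.9 FPKM (−0.60). In the authors' deposited table none of the 9 tested basement membrane genes was significant.

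Fibronectin and the fibulins were mostly lower. Fn1, the adhesive glycoprotein on which other matrix fibrils assemble, had 124 FPKM in bulk cells against 6.61 FPKM in mammospheres (log2 change −4.04). Fbln2, a fibulin of elastic fibres and basement membranes, was at 121 and 3.23 FPKM (−4.84), and the microfibril protein Fbn1 at 2.46 and 0.00256. Fbln1 stood apart at 7.83 and 5.05 FPKM (−0.54). All 6 matricellular genes were 2-fold lower, but over a wide range. Sparc, a collagen-binding calcium protein, had the highest mammosphere value of the 42 genes, 149 FPKM against 396 in bulk (−1.41). Thbs1, thrombospondin 1, was at 225 and 1.98 FPKM (−6.25), and its relative Thbs2 at 11.4 and 0.0258. Tgfbi, a TGF-beta induced adhesion protein, was at 82.4 and 0.15 FPKM. Tnc, tenascin C, was at 11.3 and 0.891 FPKM. Postn, periostin, had 31.7 FPKM in bulk and a listed value of 0 in the mammosphere library.

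The small leucine-rich proteoglycans, which coat and space collagen fibrils, were at or near 0 in mammospheres. Bgn (biglycan) was at 28.8 FPKM in bulk and Lum (lumican) at 5.3, both listed at 0 in mammospheres, and Dcn (decorin) was at 13.7 and 0.0521 FPKM. Mgp, matrix Gla protein, an inhibitor of calcification, was the most abundant of the 42 in bulk cells at 713 FPKM, rank 78 of all usable rows, and was at 29.6 FPKM in mammospheres (log2 change −4.54). All 4 lysyl oxidases were lower. Loxl4 was at 31.2 and 2.74 FPKM (−3.11), Loxl1 at 9.9 and 0.128, Lox at 7.32 and 0.00316, and Loxl2 at 3.37 and 0.0779. Ranked by level, the order thus passed from Mgp, Sparc, Thbs1, Lama5 and Col3a1 in bulk cells to Sparc, Nid1, Lama5, Lamb1 and Lamc1 in mammospheres.

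Of 21 genes for collagen hydroxylation, folding, export and trimming, 8 were 2-fold lower in mammospheres and none higher (median log2 change −0.83), and 3 of the 21 passed the minimum through bulk alone. The 4 largest changes were in the prolyl hydroxylase subunit P4ha3 (4.3 FPKM in bulk, 0.0546 in mammospheres), the procollagen peptidase Adamts2 (3.55 and listed at 0), the procollagen C-proteinase enhancer Pcolce (387 and 87.9) and the chaperone Fkbp10 (6.35 and 0.724). Of 58 other matrix genes, 38 passed the minimum, 16 of them through bulk alone. Of these, 29 were 2-fold lower and 1 higher (median −1.82). The adhesive CCN proteins Ctgf (291 and 0.0405 FPKM), Cyr61 (1592 and 6.68) and Wisp2 (21.2 and 0.241) and the fibulin relative Efemp1 (42.6 and 0.646) had the largest changes. The single higher gene, named for that reason after its values were seen, was the CCN gene Nov (2.8 and 18.5 FPKM). Of 14 TGF-beta ligands, receptors, Smads and targets, 7 were 2-fold lower and none higher (median −1.08). TGF-beta is a main inducer of matrix genes. Its target genes Smad7 (26.9 and 0.505 FPKM), Skil (60.8 and 3.26) and Tgif1 (60.8 and 15.8) were among the largest changes. The ligands, named after their values were seen, were at 68.4 and 45.2 FPKM (Tgfb1), 2.2 and 0.0429 (Tgfb2) and 25.9 and 12.5 (Tgfb3). The part of TGF-beta signals in the matrix differences was not tested.

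In the Cbx8 knockdown library, most measured matrix genes were slightly higher than in the control library, and 4 were 2-fold higher: Col8a1, Lamb3, Col7a1 and Loxl4. Mgp was the 1 gene 2-fold lower. Cbx8 itself, the subunit of Polycomb repressive complex 1 that the hairpin targets, had 4.74 FPKM in control cells against 1.23 FPKM in knockdown cells (log2 change −1.36). In the authors' deposited table Cbx8 was not significant. Of the 29 matrix genes with a row, 24 passed the minimum, 1 of them through the control library alone. Of all 10670 rows that passed, 0.262% were 2-fold higher and 0.394% were 2-fold lower. At a limit of 1.5-fold, 7 of the 24 were higher and 3 lower, beside 2.06% and 2.12% of all rows. The sign was positive in 20 of 24, and in 48.8% of all rows. The median log2 change was 0.37 for the 24 genes and −0.006 for all rows. Of these 29 genes, 3 were significantly higher in the authors' deposited table and none lower, beside 0.128% and 0.0769% of its rows. The 4 genes past 2-fold higher all fell below 2-fold when 5 FPKM rather than 1 was added, and Loxl4 also with equal upper quartiles (0.98). With equal upper quartiles, 3 genes were 2-fold higher and 2 lower, Mgp and Col3a1.

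**Figure D3:**
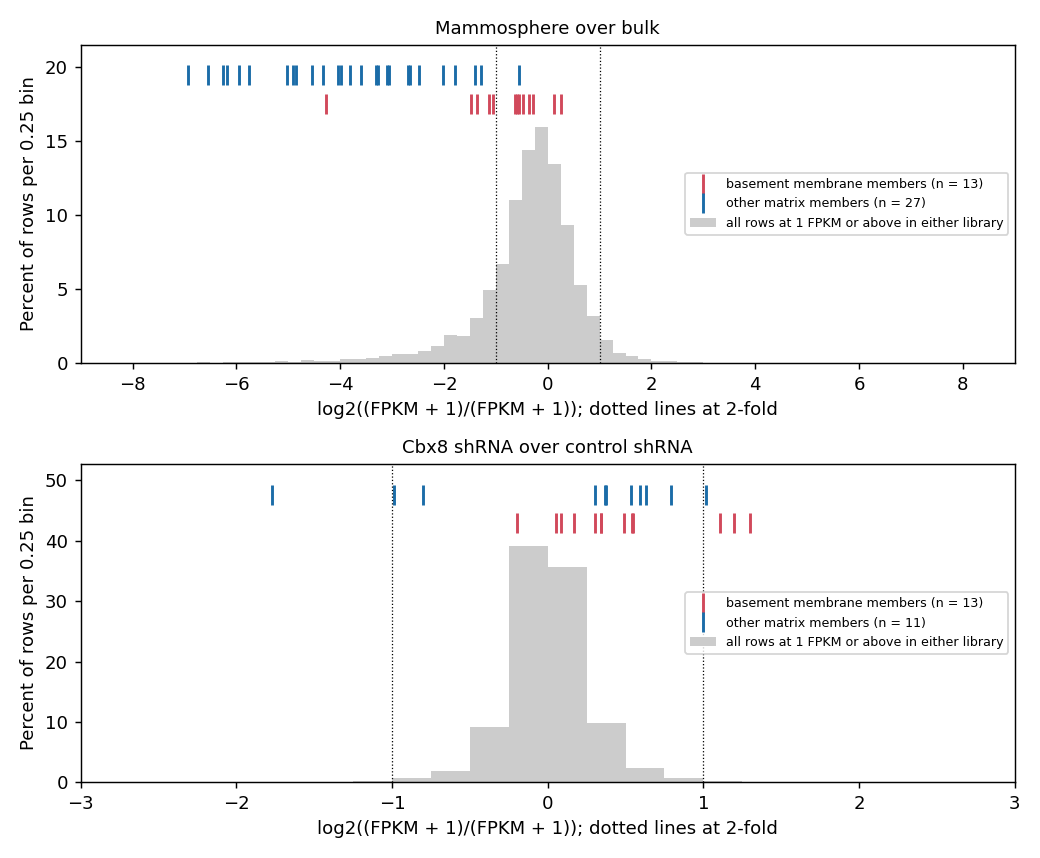
Log2 change with 1 FPKM added for the basement membrane genes (lower row of ticks) and the other matrix genes (upper row) that passed the minimum, above the distribution of all rows that passed it (bars, percent of rows per bin of 0.25), in each comparison of 2 libraries. In the upper panel 26 of 27 other matrix genes lie below the 2-fold line on the left, and in the lower panel 20 of 24 matrix genes lie above 0.

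Col8a1 (chromosome 16, 57624368 to 57754850 in mm9) had 2.37 FPKM in control cells against 7.29 FPKM with the Cbx8 hairpin (log2 change 1.3). Col7a1 (chromosome 9, 108855789 to 108886920, in the row shared with Mir711) had 8.88 and 20.3 FPKM (1.11). Loxl4 (chromosome 19, 42666768 to 42687296) had 24.3 and 50.3 FPKM (1.02). Each of these 3 had q = 0.0325 in the authors' deposited table, whose test rests on 1 library per group. Lamb3 (chromosome 1, 195128187 to 195170072) had 1.97 and 5.81 FPKM (1.20). The authors' deposited table lists q = 0.0915 for it. Lama3, the other chain gene of this kind, had no row. Mgp (chromosome 6, 136820955 to 136824326) had 14.2 and 3.44 FPKM (−1.77), and the authors' deposited table lists q = 0.43.

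Promoter sequence was available from RefSeq (build GRCm38.p6, which is not the mm9 build of the tables) for 28 of the 42 genes, in 34 windows. The 250 bases before each start were searched on both strands for 5 motifs, each by itself, so that a base could belong to more than 1 of them. The GC box, spelled GGGCGG, was found in 21 of 34 matrix windows (61.8%) and in 32.7% of all 32851 windows. The box named for its letters CCAAT was found in 9 (26.5%, against 33.8% of all). The core TATA box, searched as TATAAA, was found in 5 (14.7%, against 12.4%). A motif of the TEAD factors, searched as GGAATG, was also found in 5 (14.7%, against 12.6%). The AP-1 motif, searched as TGANTCA, was found in 1 (2.94%, against 6.75%). The windows below show 3 of the 4 genes that were 2-fold higher in the knockdown library, Col7a1 (chr9:108953336-108953585, plus strand), Col8a1 (chr16:57754738-57754987, minus strand) and Loxl4 (chr19:42612807-42613056, minus strand), beside a fibrillar collagen near 0 in mammospheres, Col1a2 (chr6:4505368-4505617, plus strand), and a basement membrane gene that was not, Nid1 (chr13:13437352-13437601, plus strand). Each is written 5′ to 3′ and ends at the base before the start, and capitals mark any of the 5 motifs.
Col1a2: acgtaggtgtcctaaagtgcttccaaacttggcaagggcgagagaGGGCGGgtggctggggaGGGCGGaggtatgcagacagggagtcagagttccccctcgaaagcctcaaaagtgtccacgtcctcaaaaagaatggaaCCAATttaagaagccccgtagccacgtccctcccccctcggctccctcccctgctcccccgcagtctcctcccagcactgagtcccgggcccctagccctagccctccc
Nid1: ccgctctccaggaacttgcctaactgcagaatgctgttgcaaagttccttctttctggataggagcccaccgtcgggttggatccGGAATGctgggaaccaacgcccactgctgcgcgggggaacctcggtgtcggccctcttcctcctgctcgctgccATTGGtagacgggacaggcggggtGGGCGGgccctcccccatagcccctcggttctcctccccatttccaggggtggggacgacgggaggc
Col7a1: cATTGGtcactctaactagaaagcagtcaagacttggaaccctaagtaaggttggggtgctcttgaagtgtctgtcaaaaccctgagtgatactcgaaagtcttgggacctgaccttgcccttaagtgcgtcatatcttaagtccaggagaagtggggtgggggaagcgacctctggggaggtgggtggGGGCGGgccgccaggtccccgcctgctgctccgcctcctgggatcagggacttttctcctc
Col8a1: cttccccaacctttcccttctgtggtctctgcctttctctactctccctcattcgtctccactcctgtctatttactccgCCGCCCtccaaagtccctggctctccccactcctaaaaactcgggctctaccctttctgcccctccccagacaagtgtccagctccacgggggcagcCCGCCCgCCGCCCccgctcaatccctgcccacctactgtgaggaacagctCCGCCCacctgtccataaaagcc
Loxl4: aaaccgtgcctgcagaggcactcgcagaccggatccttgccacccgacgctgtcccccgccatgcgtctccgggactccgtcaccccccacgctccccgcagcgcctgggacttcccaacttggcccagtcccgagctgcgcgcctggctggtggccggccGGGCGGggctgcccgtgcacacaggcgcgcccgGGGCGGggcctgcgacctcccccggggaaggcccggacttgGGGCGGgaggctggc
The Col8a1 window held 4 GC boxes and Loxl4 held 3, whereas Col7a1 held 1 GC box and a CCAAT box far from the start (−249 to −245). Nid1 held a CCAAT box (−91 to −87), a GC box and the TEAD motif (−165 to −160). Col1a2 held a CCAAT box (−109 to −105) and 2 GC boxes. The fourth gene 2-fold higher in the knockdown, Lamb3, has 2 alternative starts and is not printed. Its first window held none of the 5 motifs, and its second held the TEAD motif (−167 to −162). The windows of Col7a1, Col8a1 and Loxl4 held neither the TEAD nor the AP-1 letters, which says nothing of those factors.

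The abundant basement membrane genes were slightly higher in the knockdown library, by less than 2-fold. Nid1 had 226 FPKM in control cells against 286 FPKM in knockdown cells (log2 change 0.34), Col4a1 at 143 and 201 (0.49), Col4a2 at 80.8 and 90.9 (0.17), and Col4a5 at 31.4 and 46.3 (0.55). Laminin chains had the same sign: Lama5 was at 88.9 and 92.4 FPKM (0.05), Lamb1 at 89.1 and 94.8 (0.09), Lamc1 at 72.2 and 89.4 (0.30), and Lamb2 at 20.9 and 30.8 (0.54). Hspg2 was at 25.2 and 32.3 FPKM (0.35). Col18a1, at 50.6 and 44.0 FPKM (−0.20), was the 1 negative gene of the 13 that passed. Nid2 was under 1 FPKM in both. Together the basement membrane genes held 0.181% of the summed FPKM of the control library and 0.223% of that of the knockdown, and the other matrix genes 0.113% and 0.16%.

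Among the glycoproteins, Sparc was the most abundant of the 42 in both shRNA libraries, at 317 and 479 FPKM (log2 change 0.59). Fbln2 was at 56.7 and 73.4 FPKM (0.37), Fn1 at 30.8 and 40.2 (0.38), and Thbs1 at 19.8 and 29.2 (0.54). Fbln1 went the other way, at 3.76 and 1.72 FPKM (−0.80). Col5a1 was at 49.3 and 61.1 FPKM (0.31) and Loxl1 at 3.4 and 5.83 (0.63). Apart from Mgp and Loxl4, given above, the remaining genes outside the basement membrane groups with a row were near or below 1 FPKM in at least 1 library. Col3a1 was at 2.33 and 0.675 FPKM (−0.99) and Col12a1 at 1.02 and 2.5 (0.79), whereas Col1a1, Col6a1, Tnc and Loxl2 were under 1 FPKM in both.

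**Figure D4:**
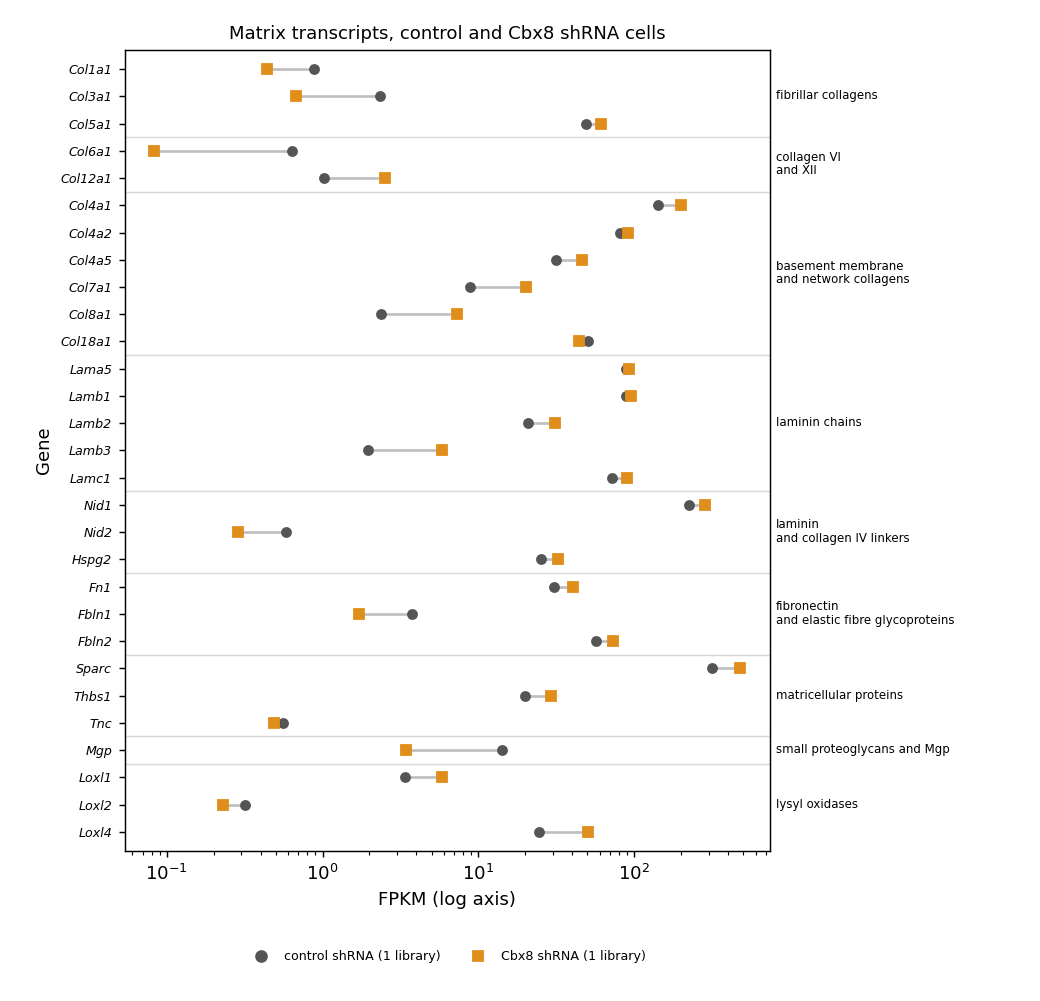
FPKM of the 29 matrix genes with a row in the shRNA table, in the control (circles) and Cbx8 knockdown (squares) libraries, on a log axis, grouped by role, with 1 library each and no error bars. Col7a1, Col8a1, Lamb3 and Loxl4 are 2-fold higher in the knockdown library with 1 FPKM added, and Mgp is 2-fold lower. The axis shows plain FPKM, on which Col12a1 is also over 2-fold higher. On that axis the low genes Col3a1, Col6a1, Fbln1 and Nid2 are also over 2-fold lower.

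The 13 genes without a row in the shRNA table were Col1a2, Col5a2, Col6a2, Col6a3, Lama3, Fbn1, Thbs2, Tgfbi, Postn, Bgn, Dcn, Lum and Lox. That table holds no row at 0 in either library. In the other table these 13 lay between 0.509 and 82.4 FPKM in bulk cells (median 11.4) and between 0 and 0.15 FPKM in mammospheres. Of the 31 genes 2-fold lower in mammospheres, 12 had no row in the shRNA table and 4 had a row under the minimum. All 9 genes within 2-fold had a row that passed. Of 12 leukocyte markers, 2 had a row there, with a sum of 0.759 FPKM in control cells against 0.588 in knockdown cells. Of 14 fibroblast markers, 6 had a row, with sums of 1391 and 1323 FPKM, nearly all of it S100a4 (1060 and 949) and Gsn (288 and 336). Of 8 endothelial markers, 1 had a row, Esam, at 0.299 and 0.321 FPKM. Of 13 epithelial markers, 10 had a row, with sums of 443 and 445.9 FPKM, and Krt14 was the 1 gene of these past 2-fold (1.09 and 10.5 FPKM). The 4 highest in control cells were Krt18 (261 and 256 FPKM), Krt19 (90.1 and 72.3), Krt8 (63.2 and 79.3) and Cldn3 (22.8 and 24.9). The adhesion genes Epcam (0.338 and 0.0427 FPKM) and Cdh1 (0.283 and 0.206), not among these, were again near 0.

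Set side by side, each change within its own table, Col7a1, Col8a1, Lamb3 and Loxl4 were 2-fold lower in mammospheres and 2-fold higher in the knockdown library, and Mgp was lower in both. Of the 31 genes 2-fold lower in mammospheres, 15 were measured in the shRNA table, and 12 of these were positive there (median log2 change 0.54). Of the 9 within 2-fold in mammospheres, 8 were positive (median 0.30). The other genes of the pathway were mostly within 2-fold in the knockdown, as were nearly all rows (0.262% higher and 0.394% lower). None of 19 measured collagen synthesis genes reached 2-fold, with 15 positive and 4 negative (median 0.25). Of all rows, 48.8% were positive. Their largest changes were in Leprel4 (1.93 FPKM in control cells, 0.845 in knockdown cells), P4ha2 (20.4 and 31.4), Leprel2 (3.11 and 4.93) and the collagen galactosyltransferase Glt25d1 (58.1 and 76.2). Of 26 other matrix genes, 1 was 2-fold higher and none lower, beside 0.262% and 0.394% of all rows. Of the 26, 19 were positive and 7 negative (median 0.16). The 2-fold higher gene was Cyr61 (113 and 231 FPKM, log2 change 1.02), and Ctgf was just under 2-fold (27.1 and 53.7, 0.96). The next largest changes were negative, in the secreted phosphoprotein Spp1 (428 and 231) and Thbs3 (7.1 and 3.64). The 14 TGF-beta genes had a median of 0.01 and none reached 2-fold. Their largest changes were in the inhibitory Smad6 (2.02 and 1.09 FPKM) and the receptors Tgfbr1 (11 and 7.77), Tgfbr2 (37.2 and 50.6) and Tgfbr3 (8.18 and 6.47).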

How the data were processed

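RNA from 4 libraries, 1 per group, was compared. The submitters' processing notes list TopHat 1.4.0, Cufflinks 1.3.0, FastQC 0.10.0 and Cuffdiff (as version 0.0.7) with build mm9. No settings are listed. The authors deposited FPKM per row in 2 Cuffdiff tables, each row with its p-value and q-value from 1 library per group. Rows with status OK or NOTEST were used here, which left out 32 and 15 rows. In the shRNA table those 15 hold a value of exactly 1 without a statistic. Where a symbol had several rows, the one with the highest mean FPKM was taken. Depth is unknown, so no interval or detection floor was computed. No p-value was computed here.

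The 42 genes and all lists were chosen with earlier results of these data known. Values were printed for list genes at 5 FPKM or above or past 2-fold, for the 4 largest changes in each other list and for the 4 markers highest in the first library. Others are marked, and some list genes are counted but not reported by name here. The counting step was tested on simulated data. Python 3.11.15, numpy 2.4.6, pandas 2.3.3 and matplotlib 3.10.9 were used. Alternatives were other pseudocounts, minimums, fold limits, centring, equal upper quartiles, tested rows only, summed rows and the authors' own calls.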

Additional observations from a re-analysis of the deposited data

How the results depend on the processing

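With 1 library per group, no replicate could be left out, and no change has an error. No paired analysis was possible because each group holds 1 library and no result comes from a test. In mammospheres, the count of 31 matrix genes 2-fold lower was 16 of 23 with rows of status OK only and 12 by the authors' own calls, and lay between 24 and 33 under the other 9 alternatives; none was higher under any of the 11. The median of −2.88 was −4.61 and −1.43 with pseudocounts of 0.1 and 5 FPKM, −2.68 and −3.27 with no minimum and a minimum of 5 FPKM, −2.67 after centring, −2.76 with equal upper quartiles and −3.11 with status OK only. In the knockdown, the 1 gene 2-fold lower became 3 with a pseudocount of 0.1 FPKM and at 1.5-fold, 2 with equal upper quartiles, and 0 at 4-fold and by the authors' calls. The 4 higher became 0 with a pseudocount of 5 FPKM and at 4-fold, and 7 at 1.5-fold. The median of 0.37 was 0.38 with a pseudocount of 0.1 FPKM, with a minimum of 5 FPKM and after centring, 0.34 with a pseudocount of 5 FPKM and with no minimum, and 0.33 with equal upper quartiles. Of the genes measured, Lamb2 in mammospheres was the 1 whose sign turned.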
